A study of Mus musculus with 30 samples.

Results

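The genes described here encode the proteins of the cytosolic ribosome in cultured mouse extraocular muscle. They were taken by symbol, as every probe set (a group of short probes for 1 transcript) whose only platform gene symbol starts with Rpl or Rps, goes on with a number and may end in a, x, y or l and 1 more digit, together with Rplp0, Rplp1, Rplp2 and Rpsa. Symbols of the S6 kinases, which contain the letter k, do not match. The rule found 49 of the 18194 genes named on the arrays, 26 of the large subunit and 23 of the small subunit, on 105 probe sets.

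RNA had been measured on a pair of Affymetrix array types, A and B, at 0, 4, 12, 24 and 48 h, with 3 arrays at each time on each type. No genotype, strain, age or agent is named for any group, and the event at 0 h is not named either, so the groups differ by time alone as far as the labels go. Whether the 3 arrays of a time came from separate cultures is also not given. The p-values set differences between times only against the spread among arrays of 1 time, and that spread may be technical. The B array of 0 h replicate 1 has leg muscle as its source name and extraocular muscle in its title, and was kept under its title.

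A ribosome has a large subunit, which joins amino acids, and a small subunit, which reads the message, and each subunit holds a fixed set of proteins around ribosomal RNA. The protein genes are strongly expressed in growing cells, and many of their messages start with a run of pyrimidines, the terminal oligopyrimidine or TOP sequence, through which mTOR signalling controls their translation. Muscle cells in culture leave the cell cycle and fuse as they differentiate, and the making of ribosomes is tied to growth in both states.

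The A type carried 100 of the 105 probe sets, for 48 genes, and 88 of these, for 46 genes, passed a filter that removed probe sets with a mean intensity under 101. The 12 dimmer probe sets included the only ones of Rpl3l, the striated muscle paralog of Rpl3, and of Rpl39l, a paralog of Rpl39. The mean over the 15 arrays was 16 for Rpl3l and 9.44 for Rpl39l. The 10 others were further probe sets of Rps18 (3 of them), Rpl27a, Rps4x, Rps10, Rps24, Rps20, Rps6 and Rpsa, genes that another probe set also measured. Of the 5 B probe sets 4 passed a filter of 199.6, for Rps3, Rpl22 and Rpl7l1, while that of Rps16, the only gene on B alone, lay below it with a mean of 47.3. A further 102 A probe sets carried several symbols, at least 1 of them a ribosomal protein gene. They are outside the rule, and 27 genes, Rpl3, Rpl5, Rpl10 and Rplp1 among them, had no other probe set on the A type.

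The skeletal muscle markers Myod1, Myog, Des, Acta1, Myh3 and Chrna1 all passed the filter on the A arrays, from a mean at 0 h of 4338 ± 843 (SD, n = 3) for Des to 12770 ± 494 for Acta1. Of 4 fibroblast markers only Col3a1 passed, and Col1a1, Dcn and Pdgfra did not, while 1 of 3 endothelial, 2 of 3 macrophage and 0 of 1 matched Schwann cell markers passed. Myh13, the myosin typical of extraocular muscle, had no matched probe set with 1 symbol. For the Gapdh control probes, 3′ over 5′ intensity had time means of 0.8 to 0.843 on the A arrays. Array medians on the A type ran from 154.7 to 181.5, and each array had the same trimmed mean of 500.2, so that every change is relative to the rest of its array.

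Over the 5 times no ribosomal protein probe set passed limma's F-test on the A arrays, with 0 of 88 at an adjusted p under 0.05 against 7.59% of all 13577 probe sets tested. At an unadjusted p under 0.05 there were 16, or 18.2%, against 22.3% of all. The comparisons with 0 h give the detail. At 4 h limma called 0 of 88 (0.0295% of all probe sets), with 4 at an unadjusted p under 0.05 (6.02% of all). At 12 h it called 0 of 88 (0.368% of all), with 5 at an unadjusted p under 0.05 (12.8% of all). At 48 h it called 0 of 88 (6.7% of all), with 22 at an unadjusted p under 0.05 (19.7% of all). Of these 22, 21 were lower than at 0 h, or 23.9% of the 88 against 8.9% of all. That background was not matched for brightness. Of 461 other probe sets with a mean of 5000 or more, 153 were lower and 20 higher at an unadjusted p under 0.05. After adjustment limma called 36 of the 461 lower and 8 higher. Of the 65 members that bright, 20 were lower and 0 higher at the unadjusted threshold, and 0 were called. These 65 were the brighter set, with a median intensity of 12530 against 7459 for the 461. The lean at 48 h was thus shared by other bright probe sets. In bulk RNA, fewer cells of a type and less RNA per cell cannot be told apart.

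At 24 h 5 of the 88 probe sets fell, or 5.68%, and 0 rose by limma. Of all probe sets 2.33% were called lower, 3.23% higher and 5.56% in either direction, so the share of calls was near the background for both directions together. The 5 belong to 4 genes, Rps2, Rps18, Rps7 and Rpl41, and 1 of the 4, Rpl41, is of the large subunit. Below the threshold of the adjusted test the members leaned further one way. At an unadjusted p under 0.05 there were 38 lower (43.2%, against 9.89% of all) and 0 higher (9.68% of all). Of the 461 other probe sets with a mean of 5000 or more, 166 were lower and 20 higher at that threshold. Of the 65 members that bright, 35 were lower and 0 higher. The 65 had a median intensity of 12530 and the 461 one of 7459, so these sets were not matched for brightness. In 40 of 88 (45.5%, against 12.7% of all) every 24 h array was below every 0 h array, and in 0 of 88 every 24 h array was above (11.5% of all). At 48 h the count below was 24, or 27.3%, against 10.5% of all.

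**Figure D1:**
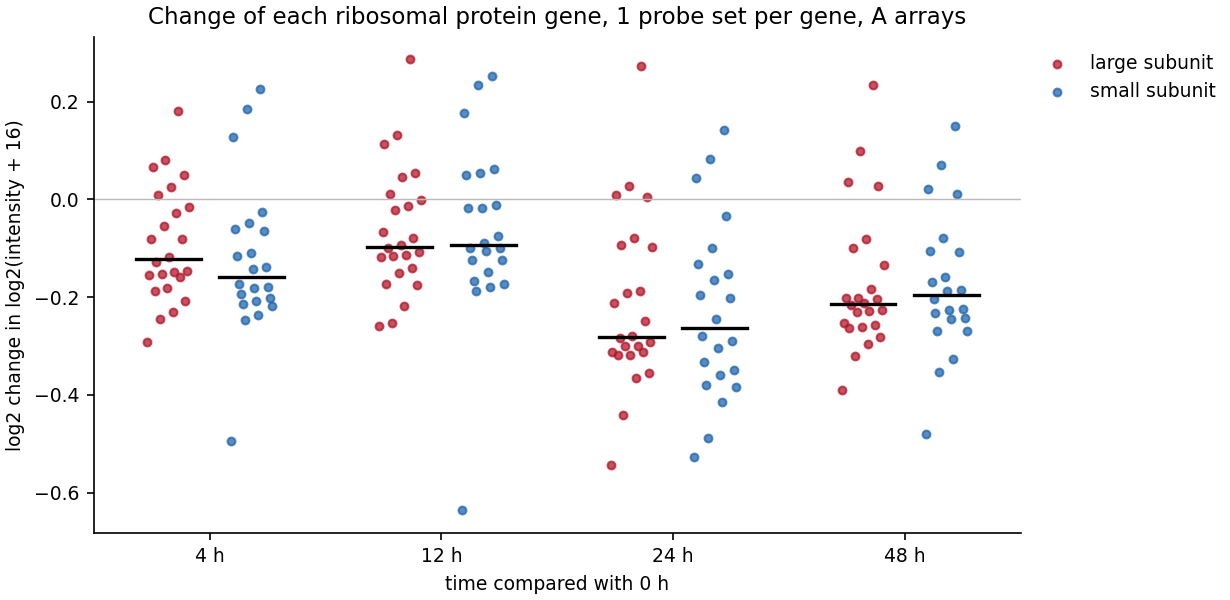
Change of each ribosomal protein gene from 0 h (vertical axis, log2 of intensity + 16) at 4 later times on the A arrays, 1 probe set per gene, red for the 24 large subunit genes and blue for the 22 small subunit genes; black bars are medians. Both colours sit mostly below 0 at every time, lowest at 24 h, with medians of -0.28 and -0.26.

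The 4 called genes are shown with the DNA around their annotated starts, 40 bases before and 20 after, because a TOP message begins with C and a run of pyrimidines. Capitals mark a C followed by at least 4 pyrimidines that begins within 5 bases of the start. The sequences are RefSeq's for GRCm38.p6, on the strand given, and the array files themselves name no genome build. Rps2 is at chr17:24720023-24720082 (+ strand), Rps18 at chr17:33955646-33955705 (- strand), Rps7 at chr12:28635934-28635993 (- strand) and Rpl41 at chr10:128549149-128549208 (- strand).
Rps2: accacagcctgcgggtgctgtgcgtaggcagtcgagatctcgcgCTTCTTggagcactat
Rps18: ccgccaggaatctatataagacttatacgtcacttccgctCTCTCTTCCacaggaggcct
Rps7: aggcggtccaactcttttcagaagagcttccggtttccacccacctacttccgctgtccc
Rpl41: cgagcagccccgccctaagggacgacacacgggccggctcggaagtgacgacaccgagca
The run has 9 bases in Rps18, starting at the annotated first base, and 6 in Rps2. The windows of Rps7 and Rpl41 hold no such run near the annotated start, which says only that these letters are not there.

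Rps2, a protein near the message entry channel of the small subunit, had intensities of 18991.9, 17505.4 and 15971.8 at 0 h and 13244.5, 13126.8 and 11053.7 at 24 h on probe set 1431766_x_at. All 3 arrays of 24 h lay below all 3 of 0 h. The log2 change was -0.49 ± 0.12 (SE; limma adjusted p = 0.019), or 28.7% less. At 48 h the values were 15572, 15474.6 and 12568.2, still below every 0 h array, with a change of -0.27 and an adjusted p of 0.201 by limma. After quantile normalization, which gives all arrays 1 distribution, the 24 h change was -0.19 (limma adjusted p = 0.0738). The call was also lost without 0 h replicate 1, 0 h replicate 2 or 24 h replicate 3, with adjusted p-values from 0.0537 to 0.0913 by limma. Of 10 other settings it was lost in 3, quantile normalization, no filter and no variance trend.

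Rps18, a protein of the head of the small subunit that contacts the large one, fell on probe set 1448739_x_at. Its intensities were 17253.8, 16652.9 and 15477.3 at 0 h and 12873.7, 12708.2 and 11760.2 at 24 h. The groups did not overlap, and the log2 change was -0.40 ± 0.10 (SE; limma adjusted p = 0.0277). Another probe set of the same gene, 1435712_a_at, gave -0.42 ± 0.13 (limma adjusted p = 0.0819), and 1455572_x_at gave -0.18 ± 0.09 (limma adjusted p = 0.313), or 0.05 after quantile normalization. On all 3 the 24 h arrays lay below those of 0 h. The call on 1448739_x_at was lost in 4 of 10 other settings, quantile normalization (change -0.12), median scaling, no filter and no variance trend. It was also lost with 0 h replicate 1, 0 h replicate 2 or any single 24 h array left out, with adjusted p-values of 0.0689 to 0.107 by limma.

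Rps7, a small subunit protein that also binds Mdm2, had intensities of 14117.1, 16914.4 and 13809 at 0 h and of 12137.7, 11958.3 and 10240.1 at 24 h on probe set 1419364_a_at. The 24 h arrays were all lower, and the log2 change was -0.38 ± 0.11 (SE; limma adjusted p = 0.0457). Its other probe set, 1435593_x_at, gave -0.19 ± 0.11 (limma adjusted p = 0.377), and there the groups overlapped. The call was lost in 12 of 15 fits that left out 1 array. The exceptions were those without 4 h replicate 1, 4 h replicate 2 or 48 h replicate 3. The call was also lost in 6 of 10 other settings. These were quantile normalization (change -0.12), median scaling, no filter, a filter at the 20th percentile, no variance trend and only the times compared.

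Rpl41, the smallest ribosomal protein, which lies between the subunits, gave the highest value on any A array, 27194.2 at 0 h replicate 1. On probe set 1455578_x_at the other 0 h arrays gave 23346.6 and 21798.9, and the 24 h arrays gave 16678.4, 20394.9 and 13154. All 24 h values were lower, replicate 3 by the most, with a log2 change of -0.54 ± 0.14 (SE; limma adjusted p = 0.0357). Without that replicate the change was -0.38, and after quantile normalization it was -0.15, and neither passed. The call was also lost without 0 h replicate 1 or 2 or 24 h replicate 1. Of 10 other settings it was lost in 5. These were quantile normalization, median scaling, no filter, no variance trend and only the times compared.

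The second called probe set of Rpl41, 1422623_x_at, ran from 10099.1 to 14019.9 at 0 h and from 7481.3 to 10092.5 at 24 h, so the groups only just separated. Its log2 change was -0.48 ± 0.13 (SE; limma adjusted p = 0.0438). The call was lost in 8 of 15 fits that left out 1 array. These were the fits without replicate 1 or 3 of 0 h, 3 of 4 h or 1 or 2 of 12 h. Those without replicate 1 or 3 of 24 h or 1 of 48 h completed the 8. Of 10 other settings the call held in 3 and was lost in 7, quantile normalization and median scaling among them. Beside these, 1454639_x_at had 491.7, 483.6 and 499.8 at 0 h and 323.4, 348.4 and 349.6 at 24 h, a change of -0.51 ± 0.18 (limma adjusted p = 0.105), again with no overlap. The dimmest, 1433530_at, gave -0.30 ± 0.26 with overlapping groups. All 4 probe sets of Rpl41 thus had a 24 h change below 0. Probe sets whose names end in _x_at or _s_at can bind related transcripts, and they made up 42% of the A members against 13.2% of all A probe sets. Ribosomal protein genes have many processed copies in the genome, and how far those or related messages contributed was not tested. With such probe sets left out the count at 24 h was 1.

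**Figure D2:**
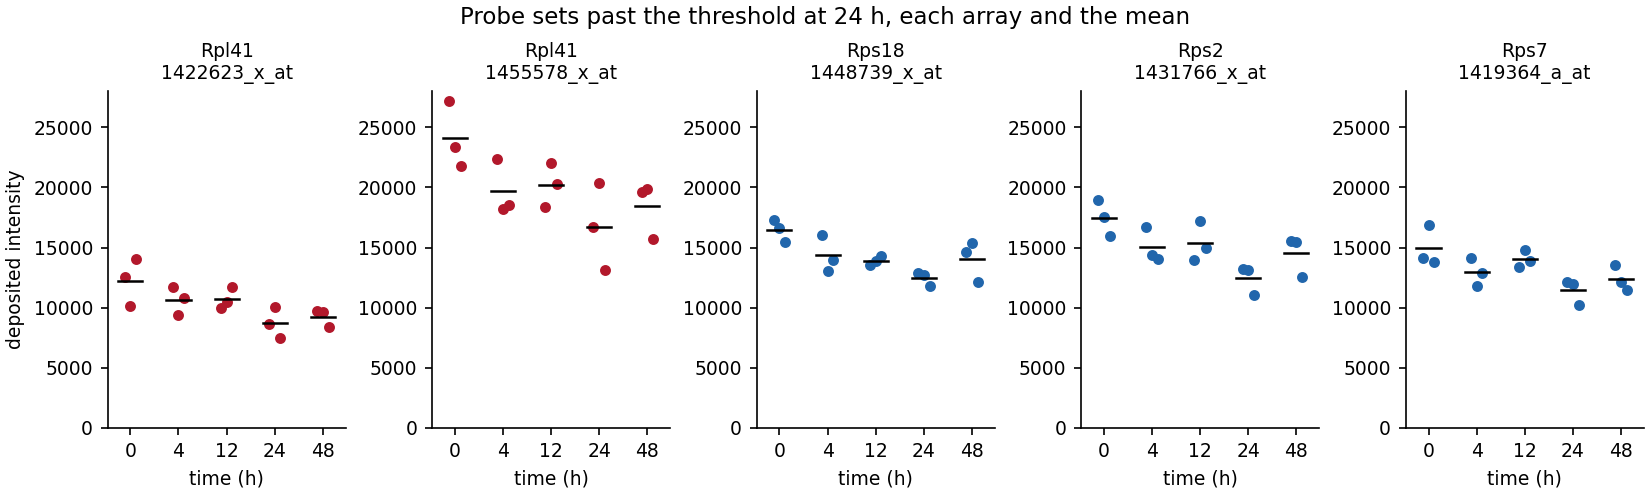
Deposited intensity (vertical axis, linear, from 0) at each time (horizontal axis, h) of the 5 probe sets that passed the threshold at 24 h, 3 arrays per time as points and their mean as a bar. In each panel the 24 h arrays all lie below the 0 h arrays, and the lowest mean is at 24 h, for example 12480 against 17490 at 0 h for Rps2.

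The count of 5 at 24 h moved with single arrays as well as with the scaling. It was 0 without 24 h replicate 3 and 8 without 48 h replicate 3. Leaving out 0 h replicate 1, 0 h replicate 2 or 24 h replicate 1 gave 1. It was 3 without 0 h replicate 3, 4 h replicate 3, 12 h replicate 1, 12 h replicate 2, 24 h replicate 2 or 48 h replicate 1, and 4 to 6 without each other array. The count at 48 h, 0 with all arrays, was 1 without replicate 1 of 0 h, 4 h or 48 h or replicate 3 of 12 h, and leaving out 0 h replicate 2 or 24 h replicate 3 gave 2. The count at 12 h was 1 without 12 h replicate 3. That over the 5 times was 2 when 12 h replicate 3 was left out, and 1 when 0 h replicate 1 or 4 h replicate 3 was. Array 24 h replicate 3 had the lowest mean over the members of all A arrays, 12.38 on the log2 scale, and 48 h replicate 3 the next lowest, 12.45. The other 24 h arrays stood at 12.59 and 12.62, and the 0 h arrays at 12.79, 12.72 and 12.75.

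Taken with 1 probe set for each of 46 genes (the brightest), the median change was -0.14 at 4 h, -0.10 at 12 h, -0.28 at 24 h and -0.21 at 48 h. Over all probe sets tested it was between -0.01 and 0.02 at each time. At 24 h 39 of 46 genes had a change below 0 (51.8% of all probe sets did), and 26 had 24 h arrays entirely below the 0 h arrays (12.7% of all probe sets did). The highest of the 5 time means was at 0 h in 31 genes, and the lowest was at 24 h in 29. Without 0 h replicate 1 or 12 h replicate 1 the median at 12 h was -0.054 or -0.049. Without 24 h replicate 3 the median at 24 h was -0.19, and without 48 h replicate 3 the median at 48 h was -0.12. The deviations of the genes from their time means were not independent of each other, with a median correlation between pairs of genes of 0.381 over the 15 arrays, which share the array itself.

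The members are bright on these arrays, and brightness moved with the change. Of the 88 probe sets 65 had a mean of 5000 or more, and 30 of the 100 brightest A probe sets were members. Among 461 other probe sets of 5000 or more, the median change was -0.09, -0.06, -0.18 and -0.19 at 4, 12, 24 and 48 h, with 32 called lower and 11 called higher at 24 h. Of these 461, 368 had a 24 h change below 0. Other probe sets of log2 12.5 to 13.5 had a median 24 h change of -0.17 (277 probe sets) and those of 13.5 to 15 had -0.29 (86 probe sets), while those under 11.5 had medians from -0.01 to 0.01. The 23 members under 5000 had a median of -0.14 at 24 h, with 14 of 23 below 0, and that of the 65 brighter members was -0.25, with 63 of 65 below 0.

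After quantile normalization the member medians were all between -0.01 and 0, and 28 of 46 genes had a 24 h change below 0. No member was called at 24 h under that scaling, where 677 of all 13577 probe sets were called against 755 on the deposited scale. Scaling each array by its median moved the members the other way, to -0.29 at 24 h and -0.30 at 48 h, and left 1 called. The lower member levels at 24 h thus hold on the deposited scale and after median scaling but not after quantile normalization. That scaling gives all arrays 1 distribution, and 30 of the 100 brightest A probe sets were members. Quantile normalization would thus also remove a fall shared by the brightest probe sets. Medians near 0 after it do not show that levels were unchanged. What part brightness has in the lower levels was not tested.

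**Figure D3:**
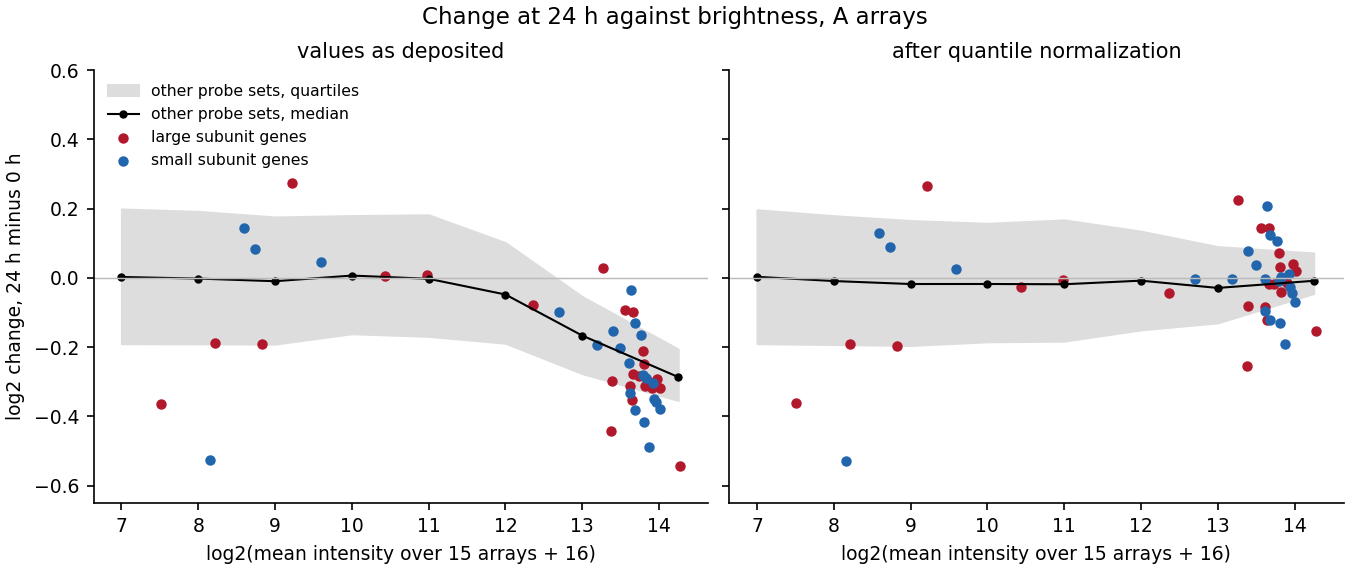
Change at 24 h (vertical axis, log2) against mean intensity (horizontal axis, log2 of intensity + 16) on the A arrays, as deposited on the left and after quantile normalization on the right; points are ribosomal protein genes, the line and band are the median and quartiles of other probe sets. On the left the line drops to -0.29 at the bright end, where most of the points lie, and on the right it stays near 0.

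**Figure D4:**
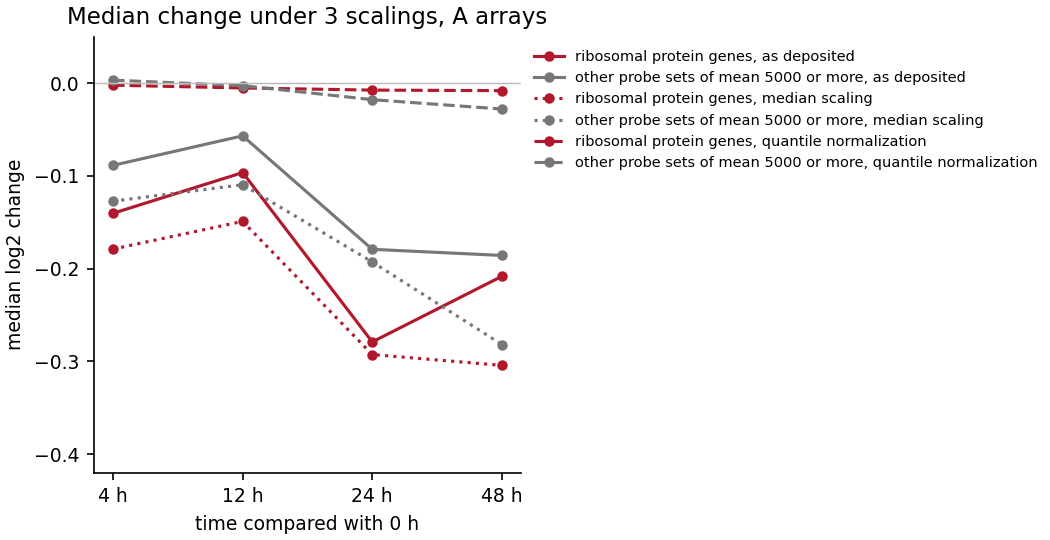
Median log2 change from 0 h (vertical axis) at each later time for the 46 ribosomal protein genes (red) and 461 other bright probe sets (grey), as deposited (solid), after median scaling (dotted) and after quantile normalization (dashed). The solid red line reaches -0.28 at 24 h, and both dashed lines stay between -0.03 and 0.01. The sets were not matched for brightness, with a median intensity of 12780 for the 46 genes and 7459 for the 461 probe sets.

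The large and small subunit genes had nearly the same change at each time. The mean log2 level of the 24 large subunit genes was 12.64 ± 0.05 at 0 h (SD, n = 3), 12.55 ± 0.06 at 4 h, 12.57 ± 0.05 at 12 h, 12.42 ± 0.15 at 24 h and 12.46 ± 0.10 at 48 h. For the 22 small subunit genes it was 12.88 ± 0.03, 12.76 ± 0.10, 12.81 ± 0.06, 12.65 ± 0.12 and 12.71 ± 0.13 at the same times. The gap in level between the subunits depends on the probes and was not read. At 24 h the arrays gave 12.49, 12.52 and 12.25 for the large and 12.70, 12.74 and 12.52 for the small subunit, and replicate 3 was lowest in both.

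The difference between large and small subunit means on the same array was -0.24 ± 0.03 at 0 h, -0.21 ± 0.04 at 4 h, -0.24 ± 0.04 at 12 h, -0.23 ± 0.03 at 24 h and -0.24 ± 0.06 at 48 h (SD, n = 3). The change of the large subunit genes thus differed from that of the small subunit genes by 0.03 at 4 h, -0.0002 at 12 h, 0.01 at 24 h and 0.0005 at 48 h, each less than the pooled SD of 0.04 between arrays of a time. With the paralogs left out the difference at 4 h was 0.05, above that SD. Median changes at 24 h were -0.28 and -0.26, and at 24 h 13 of 24 large and 13 of 22 small subunit genes had no overlap with 0 h and were lower, against 12.7% of all probe sets. With the probe sets of several symbols added, 45 large and 28 small subunit genes gave differences of 0.02, -0.01, 0.01 and -0.03 at the 4 times. With probe sets ending in _x_at or _s_at left out, the difference at 48 h was -0.08.

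**Figure D5:**
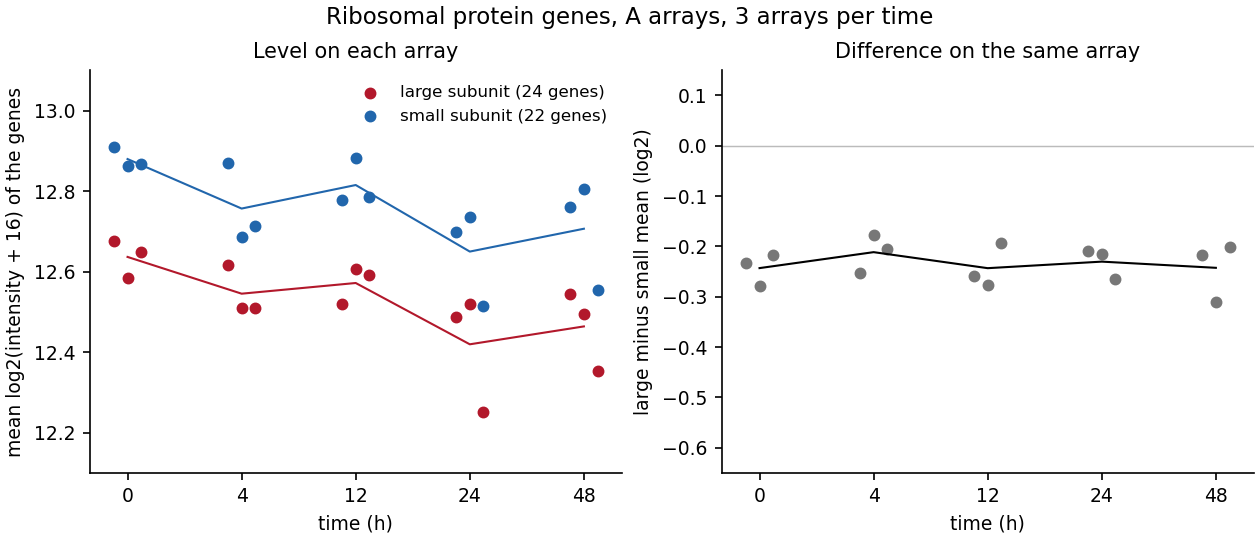
Left, mean log2 level of the large (red) and small (blue) subunit genes on each A array at each time in h; right, their difference on the same array; lines join time means. The 2 colours follow each other from array to array, and the differences on the right stay between -0.31 and -0.18.

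The stalk of the large subunit, which recruits elongation factors, is built from Rplp0, Rplp1 and Rplp2. Rplp0 had 15885.2, 18008.2 and 14829.9 at 0 h and 13362.8, 12771.1 and 13335.7 at 24 h, with no overlap and a log2 change of -0.30 ± 0.10 (SE; limma adjusted p = 0.0968). Rplp2 had 18557.3, 18722.4 and 16717.2 at 0 h and 14507.2, 15379.5 and 14171.3 at 24 h, also with no overlap, with a change of -0.29 ± 0.11 (limma adjusted p = 0.13). Neither passed the threshold, and after quantile normalization that of Rplp2 was 0.04. Rplp1 had no probe set with 1 symbol.

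Rpsa, a small subunit protein also known as a laminin receptor, had 19339, 20061.3 and 16462.2 at 0 h and 13113.7, 14638.7 and 15128.4 at 24 h. The 24 h arrays lay below, with a change of -0.38 ± 0.14 (SE; limma adjusted p = 0.12). At 48 h its arrays spread from 12052.5 to 19748.8 and overlapped those of 0 h. Rpl11, which with Rpl5 carries the 5S ribosomal RNA and binds Mdm2, had 13111, 12158.1 and 11438.5 at 0 h and 9534.6, 10385.3 and 7341.9 at 24 h. These did not overlap, and the change of -0.44 ± 0.14 (SE) had a limma adjusted p of 0.085. Rps6, the small subunit protein that S6 kinases phosphorylate, had 372.7, 308.3 and 492.8 at 0 h and 385.9, 419.6 and 420.1 at 24 h on a probe set of low intensity, with overlap and a change of 0.08 ± 0.17.

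Paralogs that can replace a standard protein in some cells were measured beside it. Rpl22, a large subunit protein, gave 10433.3, 8398.2 and 9956.3 at 0 h and 9956.6, 9941.8 and 9339 at 24 h, a change of 0.03 ± 0.11 (SE), and its paralog Rpl22l1 gave 6119.3, 3534.2 and 6646.7 and then 5754.2, 6482.6 and 3269, a change of -0.08 ± 0.24. Both pairs of groups overlapped. Rps27l, a paralog of Rps27 known as a p53 target, gave a change of -0.10 ± 0.15 at 24 h, and Rps27 one of -0.53 ± 0.22 on a dim probe set whose 0 h arrays ran from 232.6 to 489.4. Without 0 h replicate 1, the lowest of those, Rps27 passed at 24 h (change -0.82, limma adjusted p = 0.0294) and at 48 h (change -0.77, limma adjusted p = 0.0337).

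Rpl7 gave -0.30 ± 0.12 (SE) at 24 h with overlapping groups, and Rpl7l1, a Rpl7-like gene, 0.01 ± 0.18. Rps4x had 15378, 16644.7 and 15612.3 at 0 h and 13604.6, 14317.9 and 11242.3 at 24 h, a change of -0.29 ± 0.11 with no overlap (limma adjusted p = 0.151). Its paralog Rps4l, on a dim probe set, had 383.6, 323 and 286 at 0 h and 461.5, 475.5 and 218.6 at 24 h, a change of 0.14 ± 0.24. For Rpl39 the change was -0.19 ± 0.16 with no overlap. The differences between paralogs in change were not tested.

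By the size of the 48 h change, the lowest genes were Rps27 (-0.48 ± 0.22, SE), Rpl41 (-0.39 ± 0.14), Rps28 (-0.35 ± 0.11) and Rps14 (-0.33 ± 0.11), with limma adjusted p-values of 0.0638 to 0.233. Rps28, a small protein at the message exit side of the small subunit, had 19299.6, 17346.7 and 17310.2 at 0 h and 14973.3, 14721 and 12612.8 at 48 h. Rps14, on the platform of the small subunit, had 16397, 14945.3 and 15793.5 and then 14270.6, 11335.9 and 12148.8. In both, the 48 h arrays were entirely below. Rps28 passed at 48 h in the fits without 4 h replicate 1 or 24 h replicate 3, the lower adjusted p being 0.0438 by limma. Rps14 passed without 24 h replicate 3 or 48 h replicate 1, the lower adjusted p being 0.0481 by limma. The highest were Rpl14 (0.23 ± 0.15), Rps6 (0.15 ± 0.17), Rpl22 (0.10 ± 0.11) and Rps4l (0.07 ± 0.24), all with overlapping groups. A second Rpl22 probe set, 1448398_s_at, had 851.1, 1131.7 and 896 at 0 h and 1340, 1388.3 and 1175.4 at 48 h, with a change of 0.44 ± 0.14 (limma adjusted p = 0.0801). It was 1 of 88 whose 48 h arrays all lay above those of 0 h, against 13.5% of all probe sets.

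Where a gene had several probe sets they did not always give the same change. Of 19 such genes on the A arrays, Rps10 had the widest range at 24 h, from -0.25 to 0.40 over 5 probe sets, and its brightest gave -0.13 ± 0.12 (SE), or 0.12 after quantile normalization. Rpl41 ran from -0.54 to -0.30 over 4, and Rps18 from -0.42 to -0.18 over 3.

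On the B arrays 0 of 4 members were called at 4, 12, 24 or 48 h or over the 5 times by limma, against 0%, 0.074%, 0.97%, 0.933% and 1.02% of all 13507 probe sets. At an unadjusted p under 0.05 the counts were 0, 0, 0, 1 and 0, against 5.17%, 8.12%, 10.3%, 10.3% and 10% of all. These counts were also 0 after adjustment without the array of 0 h replicate 1. The 1 was Rps3, a protein of the message entry side of the small subunit, whose probe set 1455600_at had 3515.1, 2988.1 and 2944.7 at 0 h and 4452, 4084.5 and 3267.5 at 48 h. Its groups overlapped, and the change was 0.31 ± 0.14 (SE; limma adjusted p = 0.446). The A probe set of Rps3 had a 48 h change of -0.23 ± 0.11, which was 0.01 after quantile normalization, and the second B probe set, 1447563_at, varied from 144 to 828.1 among arrays of 24 h alone. Rpl22 on the B type ran from 45307.7 to 50704.2 at 24 h against 45791.5 to 48019.7 at 0 h, a change of 0.04 ± 0.11, and Rpl7l1 had one of -0.08 ± 0.15. Bright B probe sets outside the members had a median 24 h change of 0.08 (262 probe sets), and whether the array types differ was not tested.

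Lists of related genes were counted beside the members on the A arrays. Of 8 translation elongation factors 1 fell at 24 h, where 2.33% of all probe sets were called lower. This was Eif5a, with 12340 ± 349 at 0 h and 9421 ± 812 at 24 h (SD, n = 3), a change of -0.39 ± 0.10 (SE; limma adjusted p = 0.0235). That call was lost in 5 of 10 other settings, quantile normalization (change -0.16), median scaling, no filter, no variance trend and only the times compared, and without 0 h replicate 1 or 3 or 24 h replicate 2 or 3. All 8 had a 24 h change below 0 (51.8% of all probe sets), with a median of -0.21. Of the 461 bright probe sets outside the members, 368 were also below 0, and brightness was not matched. Eef1a1, which brings transfer RNA to the ribosome, had -0.41 ± 0.12 (limma adjusted p = 0.0557).

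Of 20 other genes with TOP messages 1 fell at 24 h and 2 rose at 48 h, against 2.33% of all probe sets called lower at 24 h and 4.2% called higher at 48 h. The median 24 h change was -0.24, with 19 of 20 below 0 against 51.8% of all. Of the 461 bright probe sets outside the members, 368 were below 0 at 24 h, and the list was not compared at matched brightness. The one that fell was Npm1, a nucleolar protein that takes part in ribosome assembly, from 10230 ± 677 to 6877 ± 139 (SD, n = 3), a change of -0.57 ± 0.12 (SE; limma adjusted p = 0.00714). It stayed past the threshold after quantile normalization and median scaling and without each array. Those that rose were Gas5 and Snhg1, which host small nucleolar RNAs in their introns. Gas5 went from 4973 ± 239 at 0 h to 4095 ± 393 at 24 h and 7107 ± 396 at 48 h, with a 48 h change of 0.51 ± 0.11 (limma adjusted p = 0.00613), which did not pass after median scaling (limma adjusted p = 0.066). Snhg1 went from 2064 ± 324 at 0 h to 3532 ± 669.8 at 48 h, a change of 0.77 ± 0.16 (limma adjusted p = 0.0078).

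Of 13 regulators of ribosomal protein synthesis 1 rose at 24 h (3.23% of all probe sets) and at 48 h (4.2% of all). This was Eif4ebp1, the repressor of cap-dependent translation that mTOR phosphorylates. It had 2599 ± 324 at 0 h, 3607 ± 375 at 24 h and 4569 ± 284 at 48 h (SD, n = 3). The changes were 0.47 ± 0.13 (SE; limma adjusted p = 0.0379) and 0.82 ± 0.13 (limma adjusted p = 0.000633). The call at 48 h held without each array. That at 24 h was lost after median scaling, with no filter, with no variance trend, with only the times compared, and without 0 h replicate 2 or 3, 4 h replicate 1, 12 h replicate 1, 24 h replicate 1 or 2 or 48 h replicate 1. Myc, a transcription factor for ribosomal protein genes among others, passed the F-test over the 5 times (limma adjusted p = 0.0378), with 952.2 ± 258 at 0 h, 676.9 ± 109 at 12 h and 1408 ± 379 at 48 h, and no single comparison with 0 h. Of 74 mitochondrial ribosomal protein genes 1 fell at 24 h (2.33% of all probe sets were called lower). This was Mrps18a, with a change of -0.76 ± 0.17 (limma adjusted p = 0.013), a call lost without 24 h replicate 1 or 3. The median 24 h change of these mitochondrial genes was -0.02, with 39 of 74 below 0 against 51.8% of all probe sets. The 3 tested genes for ribosome-bound or fusion proteins had a median 24 h change of -0.15. Of them limma called 0 at 24 h (5.56% of all probe sets), with 0 at an unadjusted p under 0.05 (19.6% of all).

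Markers of cell types moved in part at the same times. Col3a1 rose from 2449 ± 283 at 0 h to 3516 ± 270 at 24 h (SD, n = 3; limma adjusted p = 0.0153), and the summed level of the 4 fibroblast markers was 2320 to 2813 at 0 h and 3427 to 4064 at 24 h. Col3a1 made up nearly all of that sum. The other 3 were below the filter on the A arrays, with Col1a1 at 34.57 at 0 h and 157.1 at 24 h, Dcn at 12.73 and 9.1, and Pdgfra at 82.3 and 52.63. On the B arrays, where both were tested, the 24 h change was -0.06 ± 0.52 (SE) for Dcn and -0.63 ± 0.84 for Pdgfra. Myh3, the embryonic myosin, rose from 4996 ± 59 to 8675 ± 1780 at 24 h (limma adjusted p = 0.0179). Myod1 fell from 7444 ± 1899 to 4413 ± 648 at 48 h (limma adjusted p = 0.0232). Among the 6 muscle markers limma made no other call against 0 h. Of all probe sets 3.23% were called higher at 24 h and 2.5% lower at 48 h. The 24 h change was below 0 in 3 of the 6 and the 48 h change in 4, against 51.8% and 47.5% of all. Of the tested markers, 1 endothelial and 2 macrophage, limma called 0 at 24 h and 0 at 48 h (5.56% and 6.7% of all). The summed level of the 6 muscle markers was 42550 to 55680 at 0 h and 43440 to 55730 at 24 h. The part of these in the ribosomal protein values was not tested.

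Promoter sequence of the members, which the arrays did not measure, was read as well. RefSeq windows of 300 bases, from 250 before to 50 after the annotated start, were matched for 43 of the 49 genes, and Rpl7, Rpl8, Rps14, Rps20, Rps29 and Rps4l had no entry. The motif CCGGAAG, the core bound by ETS factors, was present on either strand in 21 of 43 (48.8%) against 10% of 26742 genes. GGGCGG, the GC box, was present in 58.1% against 38.5%, AAGATGG, a YY1 motif, in 18.6% against 7.32%, and TATAAA in 14% against 15.6%.

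A C followed by 4 or more pyrimidines within 5 bases of the start, read on the gene's strand, was present in 20 of 43 (46.5%) against 21.2% of all. By subunit this was 11 of 24 large and 9 of 19 small, and CCGGAAG was in 11 of 24 and 10 of 19. Of the 4 genes called at 24 h, Rps2 and Rps18 had the pyrimidine run, as printed, and each of the 4 held CCGGAAG within its 300 bases. A match is a description of these windows and not a site, and annotated starts can differ from those used in muscle.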

How the data were processed

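Affymetrix A and B arrays of total RNA were used, 15 of each type. The values are linear intensities, 1 per probe set, deposited by the authors in a table per type. Labelling and hybridisation followed the maker's standard protocol, per the labels. Software, background correction and summary of the probes were not given in the sources used here. In each table every array has 1 common trimmed mean, so the arrays had been scaled one by one.

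Symbols came from the platform annotation, with older ones updated by Entrez identifier. The log2 of intensity + 16 was fitted with limma 3.58.1 in R 4.3.3 (lmFit, eBayes with an intensity trend), with 1 mean per time over all 15 arrays of a type. Control probe sets and those below the 40th percentile of mean intensity were left out, which left 13577 and 13507. The Benjamini-Hochberg adjustment ran over all of these, with a threshold of 0.05. Figures were drawn with matplotlib 3.10.9.

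Genes were named by a rule: those past the threshold, the 4 highest and 4 lowest at 48 h on the A arrays and 2 of each on the B arrays, the paralog pairs, the stalk genes, Rpsa, Rps6 and Rpl11, and called members of the other lists. Further genes and probe sets named for a count or a range were chosen after their values were seen. Members and lists were chosen with earlier results of these data known. The 3 arrays of a time shared numbers with those of other times. The labels do not say whether these numbers pair the arrays, and the main fits used no pairing. The fit was also run on simulated data with independent noise and larger changes than those of the members, so that run does not bear on their calls.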

Additional observations from a re-analysis of the deposited data

How the results depend on the processing

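The number of arrays limits every value. The count of member probe sets called at 24 h on the A arrays was 5, and was 0 after quantile normalization, 1 after median scaling, 0 with no filter, 3 with a filter at the 20th percentile, 0 with no variance trend, 13 with array weights, 1 with _x_at and _s_at probe sets left out and, chosen after seeing the data, 9 with probe sets of several symbols added. With array weights the other counts were 15 over the 5 times, 1 at 12 h and 7 at 48 h, and with several symbols 1 over the 5 times and 2 at 48 h. With the replicate number as a block (replicate block) they were 1 over the 5 times and 1 at 48 h, and 5 at 24 h. Same-numbered A arrays had correlations of deviations from -0.364 to 0.421, with 10 of 30 over 0.1. Their median was 0, against -0.002 for arrays of different numbers and times. Deviations within a time sum to 0, so these medians are not independent of each other. They showed no positive correlation shared by same-numbered arrays as a whole, and whether the numbers pair some of the arrays was not tested. Leaving out each array gave 0 to 2 over the 5 times, 0 to 1 at 12 h, 0 to 8 at 24 h and 0 to 2 at 48 h. On the B arrays the counts were 0 in each of these fits. The member medians, whose alternatives were all chosen after seeing the data, became -0.0022, -0.0052, -0.0075 and -0.0081 at 4, 12, 24 and 48 h after quantile normalization, and -0.3042 at 48 h after median scaling. Leaving out each array gave -0.1121 to -0.0485 at 12 h, -0.3087 to -0.1878 at 24 h and -0.2391 to -0.1156 at 48 h. The large minus small difference at 48 h became -0.0795 with _x_at and _s_at probe sets left out, and that at 4 h was above the pooled SD of 0.042 with paralogs left out (0.0533), with no filter (0.0466), and without 0 h replicate 3 or 4 h replicate 1 (up to 0.0526). Signs turned for small changes, none of them called. After quantile normalization the 24 h and 48 h changes were 0.0402 and 0.0587 for Rplp2 and 0.0021 and 0.0435 for Rps4x, and that of Rpl7l1 at 24 h was -0.0276. After median scaling Rpl7l1 had -0.0083 at 24 h, Rps27l -0.0737 and Rps4l -0.0261 at 48 h. With array weights Rpl22l1 had 0.0242 and Rps27l 0.0106 at 24 h, and Rps6 -0.0219 at 48 h. Leaving out each array gave, at 24 h, -0.0651 to 0.0911 for Rpl22, -0.3617 to 0.2207 for Rpl22l1, -0.1178 to 0.1922 for Rpl7l1, -0.2237 to 0.069 for Rps27l, -0.0419 to 0.4915 for Rps4l and -0.068 to 0.2568 for Rps6. At 48 h it gave -0.1023 to 0.1535 for Rps27l, -0.0252 to 0.1768 for Rps4l and -0.0019 to 0.3229 for Rps6, and on the B arrays -0.0455 to 0.115 for Rpl22 and -0.1122 to 0.0945 for Rpl7l1. Other pseudocounts (1 and 64) left the count at 24 h at 5, and using the times compared alone gave 4. The cause of these differences was not tested.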
